A study of Mus musculus with 20 samples.

Results

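Ts1Cje is a mouse line with 3 copies, not 2, of one end of chromosome 16, the mouse counterpart of a large part of human chromosome 21, and it serves as a model of Down syndrome. The comparison described here was the effect of this segmental trisomy in the embryonic forebrain when the parents ate plain chow. It used 10 of the 20 arrays of the series, chosen by the genotype and treatment fields of the sample labels: 5 Ts1Cje embryos and 5 wild-type (WT) embryos, each from breeding pairs given purified powdered chow without apigenin. The sample titles carry the strain name for embryos of both genotypes, so the titles were not used to set the genotype.

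Both genotypes came from one kind of cross, in which Ts1Cje fathers and C57Bl/6J mothers were paired. The sample labels name embryonic day 15, whereas the protocol sets dissection 0.5 days after that, and the design text gives 3 males and 2 females in each group. Brain hemispheres of 1 embryo were used for each array, an Affymetrix Mouse Gene ST 1.0 chip. The other 10 arrays, from breeding pairs that ate apigenin, a plant flavone, at 2 g per kg of chow, entered the model only to help estimate the spread, and their own genotype differences are given side by side in a few places. No label says which embryos were littermates. The p-values rest on the variation from embryo to embryo, part of which may be shared within a litter.

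An extra chromosome segment raises the number of gene copies from 2 to 3 for every gene it carries. If RNA followed copy number without any adjustment, each such gene would have 1.5 times the RNA of WT, a log2 difference of 0.58. In Ts1Cje the extra segment is not a free chromosome: it is joined to the distal end of chromosome 12, and published maps of the line describe a loss of sequence at that end of chromosome 12. The junction lies at Sod1, the gene of a superoxide dismutase, and arose in a line in which Sod1 had been targeted for disruption. The segment holds genes with well-studied roles in the developing brain, among them the protein kinase Dyrk1a, the oligodendrocyte and progenitor factors Olig1 and Olig2, the calcineurin inhibitor Rcan1, the cell adhesion molecule Dscam and the receptors for interferons.

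The values are log2 signals of 21225 probe sets, of which 20239 could be paired with 1 gene symbol each and were tested. A log2 difference of 1 is a doubling, and all differences below are Ts1Cje minus WT with the standard error (SE), n = 5 per genotype. Signals of different probe sets are not on a common scale of RNA amount, so the signal of a gene is used below only as the brightness of its probe set. The arrays were alike, with medians between 7.85 and 7.88 and correlations between pairs of 0.991 to 0.997. The level of Y-linked genes separated 3 embryos of each genotype, at 9.00 to 9.34, from 2 of each, at 4.53 to 4.74, as the design text states. WT replicates 1 and 2 stood farthest apart on the first principal component, at 21.5 and -14.8, and had the lowest array weights, 0.473 and 0.498. Forebrain markers were bright in all 10 embryos, with the cortical transcription factor Tbr1 at 11.03 to 11.26. Of 17 hindbrain and spinal cord markers 0 passed, with a median difference of -0.04, although the midbrain and hindbrain factor En2 lay at 7.18 and 7.40 in Ts1Cje replicates 4 and 5 against 6.09 to 6.74 in the other 8 embryos. The part of such dissection differences in the results was not tested.

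Over all genes 63 differed between the genotypes, 53 higher and 10 lower in Ts1Cje (limma, adjusted p under 0.05), which is 0.311% of the genes tested, 0.262% for higher and 0.0494% for lower. The median difference over all genes was -0.01, with 11233 genes below 0 and 9006 above. Of the 63 genes, 43 lay in the trisomic segment, 5 at the end of chromosome 12 and 15 elsewhere. The 5 Ts1Cje values lay entirely above the 5 WT values for 145 genes (0.716% of all genes) and entirely below them for 125 (0.618%). A total of 1354 genes had an unadjusted p under 0.05.

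In gene order the trisomic segment runs from Sod1 to the end of chromosome 16 and holds 75 measured genes. The test called 43 of them higher in Ts1Cje and 0 lower, and 32 missed the threshold. The median difference over all 75 genes was 0.32, a 1.25-fold increase, against -0.01 over all genes of the array. For 50 of the 75 genes every Ts1Cje embryo lay above every WT embryo, and for 1 gene, Fam3b, every Ts1Cje embryo lay below. Fam3b, which encodes a secreted cytokine-like protein, had a dim probe set and did not pass (-0.22 ± 0.07, adjusted p = 0.46). All 43 genes that passed were among the 50 without overlap.

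**Figure D1:**
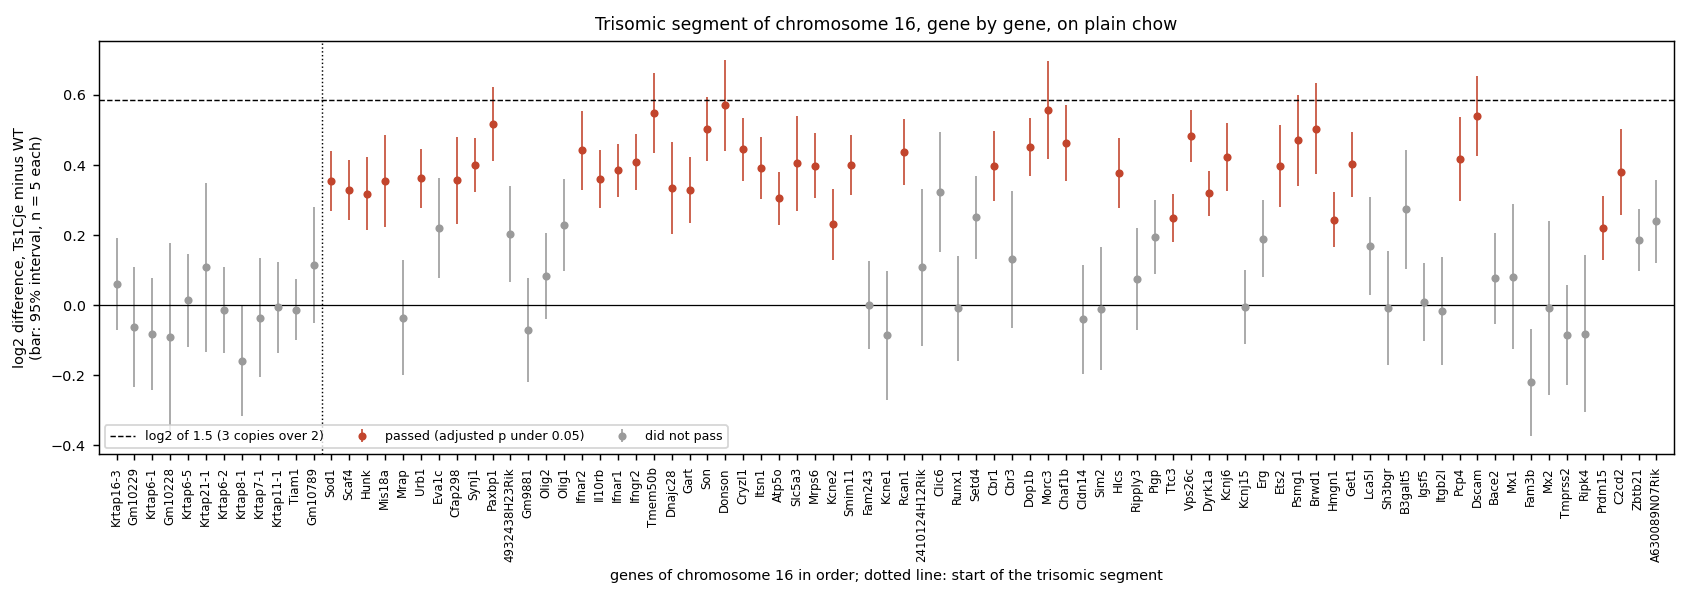
Log2 difference between Ts1Cje and WT forebrain (vertical axis, point with 95% interval, n = 5 per genotype) for the last 12 measured genes before the trisomic segment and the 75 genes of the segment, in chromosome order along the horizontal axis. Red points passed the test and grey points did not; the step at the dotted line, from Tiam1 at -0.01 and its neighbour Gm10789 at 0.12 to Sod1 at 0.35, marks the start of the segment, and no point lies above the dashed line at the log2 of 1.5.

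The start of the segment was sharp between Tiam1 and Sod1. Tiam1, an activator of the Rac GTPase and a bright gene just before the segment, ranged from 9.01 to 9.23 in WT and from 9.01 to 9.19 in Ts1Cje, a difference of -0.01 ± 0.04. Sod1 was the first gene past that point, at 11.24, 11.04, 11.22, 11.14 and 11.08 in the 5 WT embryos and at 11.47, 11.51, 11.45, 11.48 and 11.58 in the 5 Ts1Cje embryos. The genotypes did not overlap, and Sod1 was 1.28-fold higher in Ts1Cje (0.35 ± 0.04, adjusted p = 2.8e-05). A probe set sums signal over a transcript, so these values do not show whether the Sod1 RNA was complete. Among the 50 measured genes before the segment 0 passed, with a median of -0.01, and all 50 overlapped between genotypes. Their mean level per embryo was only 6.51 to 6.64, against 8.33 to 8.61 for the segment. Within the segment 1 of 22 genes with a WT signal under 7 passed. The dim genes among the 50 could therefore hardly show a copy change. Of all 580 genes of chromosome 16 before the segment 1 passed, the chloride channel gene Clcn2.

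Averaged over its 75 genes, the segment gave 1 value per embryo. It was 8.36, 8.35, 8.33, 8.33 and 8.33 in WT and 8.60, 8.61, 8.59, 8.60 and 8.61 in Ts1Cje (log2). The genotypes were far apart relative to the spread within each: WT averaged 8.34 ± 0.0137 (SD, n = 5) and Ts1Cje 8.60 ± 0.00862. The difference was 0.26 (SE 0.0072). An exact permutation test, two-sided, gave p = 0.0079, and 252 assignments of 5 against 5 allow none smaller. The embryo numbers form 2 runs, 87 to 94 and a higher one, which may be separate collections. The difference was 0.27 within the lower run, 2 embryos against 2 (smallest possible p 0.333), and 0.25 within the higher, 3 against 3 (smallest possible p 0.1).

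**Figure D2:**
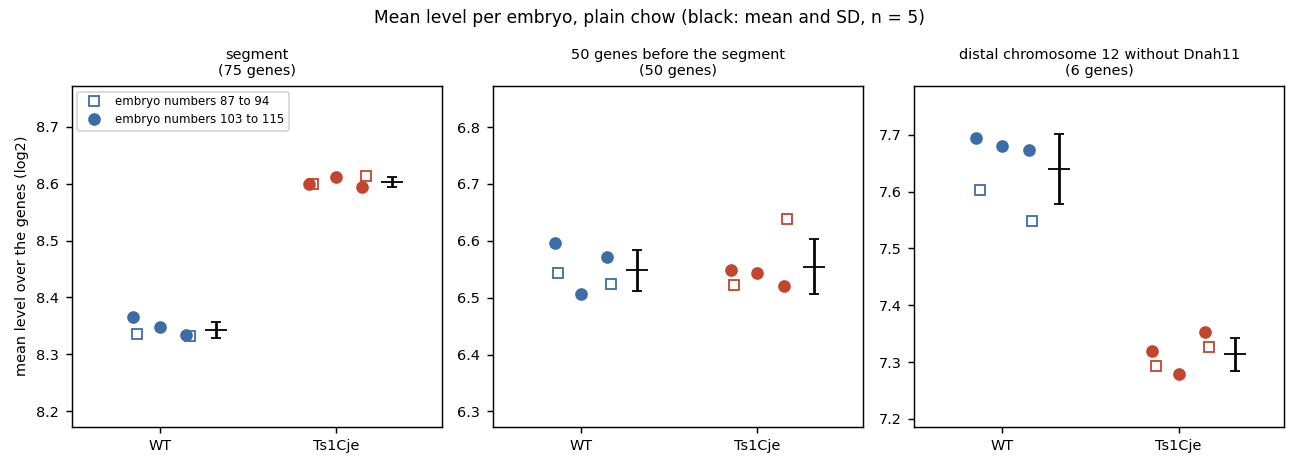
Mean log2 level per embryo over the 75 genes of the segment (left), the 50 measured genes before it (middle) and the 6 genes past Dnah11 on chromosome 12 (right), for 5 WT (blue) and 5 Ts1Cje (red) embryos; the 3 vertical axes span the same range, open squares are embryos 87 to 94, filled circles those of the higher run, and black marks are the mean and SD. The genotypes separate upward in the left panel, overlap in the middle one and separate downward in the right one. The middle set is dimmer, at 6.51 to 6.64 per embryo against 8.33 to 8.61 on the left.

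The increase was smaller than the copy number. The 43 genes that passed lay between 0.22 and 0.57, with a median of 0.40, a 1.32-fold increase. For 35 of them the 95% interval lay below the log2 of 1.5, and for 8 it included that value: Paxbp1, Tmem50b, Son, Donson, Morc3, Psmg1, Brwd1 and Dscam. The interval lay above it for 0 genes. Array signal contains background that does not scale with RNA, and the deposited values were also adjusted by the authors' normalization; the part of either in the gap between 1.32 and 1.5 was not tested.

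The brightness of the probe set went with the size of the difference. Among 29 segment genes with a WT signal over 9, 28 were higher in Ts1Cje and the median was 0.40. The remaining bright gene, A630089N07Rik, the last gene of the segment in this order, lay at 0.24 ± 0.06 (adjusted p = 0.10), also without overlap, and passed on apigenin chow at 0.41. Among 24 genes between 7 and 9, 14 were higher, with a median of 0.33. Among 22 genes under 7, 1 was higher, the potassium channel gene Kcnj6, and the median was 0.00. The unannotated gene 4932438H23Rik, at 0.20 ± 0.07 (adjusted p = 0.42), did not overlap between genotypes either and did not pass. For the other dim probe sets no difference passed at this brightness, where the SE had a median of 0.072 against 0.043 for genes over 9.

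**Figure D3:**
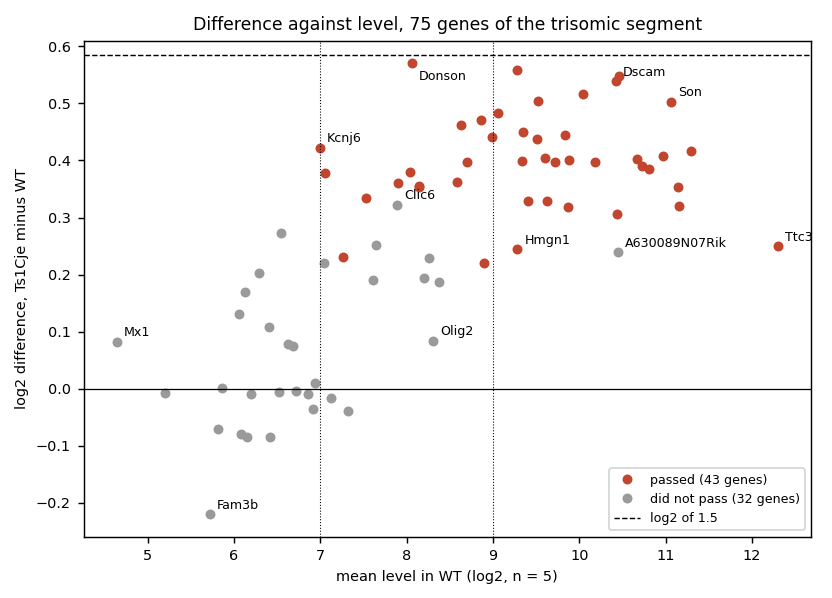
Log2 difference between Ts1Cje and WT (vertical axis) against the mean WT signal (horizontal axis, log2, n = 5) for the 75 segment genes; red points passed, grey points did not, the dotted lines at 7 and 9 bound the 3 brightness classes, and the dashed line is the log2 of 1.5. Points to the right of 9 lie between 0.24 and 0.56, whereas points to the left of 7 lie between -0.22 and 0.42 with a median of 0.00 and only Kcnj6 among them in red.

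The segment carries 4 subunits of class II cytokine receptors, and all 4 were higher. Ifnar1 and Ifnar2 form the receptor for type I interferons, Ifngr2 is the signalling chain of the interferon gamma receptor and Il10rb is shared by the receptors of interleukin 10 and of type III interferons. Ifnar1 stood at 10.81, 10.85, 10.78, 10.84 and 10.75 in WT and at 11.15, 11.15, 11.22, 11.24 and 11.20 in Ts1Cje, a 1.31-fold increase (0.38 ± 0.04). Ifnar2 rose by 0.44 ± 0.05, Ifngr2 by 0.41 ± 0.04 and Il10rb by 0.36 ± 0.04. The antiviral genes Mx1 and Mx2, interferon-induced GTPases that lie in the segment too, had the 2 dimmest probe sets of the segment and lay at 0.08 ± 0.10 and -0.01 ± 0.12.

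Genes that respond to interferon elsewhere in the genome were read beside their receptors. Of 41 measured members of an interferon-stimulated list 0 passed, and their median was 0.03. The nearest by p were Xaf1 at 0.17 ± 0.06, the ubiquitin ligase Trim25 at 0.20 ± 0.07, the membrane restriction factor Ifitm3 at 0.35 ± 0.15 and the class I light chain B2m at 0.24 ± 0.10, with adjusted p-values of 0.42 to 0.70. Of these 4, Xaf1 alone did not overlap between genotypes. Averaged over the 41 genes, the WT embryos lay at 6.99 to 7.15 and the Ts1Cje embryos at 7.06 to 7.16, which overlap.

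All 5 genes of RNA processing and translation rose. Son, a nuclear speckle protein needed for splicing, lay at 10.99, 11.18, 11.14, 11.01 and 10.99 in WT and at 11.52, 11.62, 11.62, 11.54 and 11.53 in Ts1Cje. The lowest Ts1Cje embryo was well above the highest WT embryo, and Son was 1.42-fold higher (0.50 ± 0.04, adjusted p = 1.4e-06). Paxbp1, a binding partner of PAX factors, rose by 0.52 ± 0.05. The rises were smaller in Mrps6, a mitochondrial ribosomal protein (0.40 ± 0.04), Urb1, a ribosome biogenesis factor (0.36 ± 0.04), and Scaf4, which acts on RNA polymerase II at transcript ends (0.33 ± 0.04).

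Among 13 genes of signalling, protein turnover and membrane traffic 11 rose. Dyrk1a, a kinase that regulates the exit of neural progenitors from the cell cycle, lay at 11.12, 11.13, 11.13, 11.15 and 11.23 in WT and at 11.49, 11.47, 11.43, 11.51 and 11.47 in Ts1Cje. Its 1.25-fold increase (0.32 ± 0.03) was among the smaller ones, and its interval lay below the log2 of 1.5. Rcan1 rose 1.35-fold, from 9.44, 9.56, 9.43, 9.58 and 9.52 to 9.90, 9.94, 9.86, 10.02 and 9.98 (0.44 ± 0.05). Of 15 measured genes of the calcineurin and NFAT pathway, which Rcan1 and Dyrk1a are known to inhibit, 0 passed, with differences of -0.05 to 0.05.

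The other genes of this group that rose lay between 0.25 and 0.55. Synj1, a phosphatase that uncoats synaptic vesicles, rose by 0.40 ± 0.04 and Itsn1, an endocytic scaffold, by 0.39 ± 0.04. Vps26c, a subunit of the endosomal retriever complex, rose by 0.48 ± 0.04, from 8.97 to 9.15 in WT to 9.51 to 9.58 in Ts1Cje, with the smallest adjusted p of the segment (1.4e-07). Tmem50b rose by 0.55 ± 0.06, Dop1b by 0.45 ± 0.04, the tail-anchored protein insertion factor Get1 by 0.40 ± 0.04, C2cd2 by 0.38 ± 0.06 and the kinase Hunk by 0.32 ± 0.05. Ttc3, a ubiquitin ligase, had the brightest probe set of the segment and rose by 0.25 ± 0.03. The 2 genes of this group that did not pass were Eva1c (0.22 ± 0.07) and the epidermal kinase Ripk4 (-0.08 ± 0.11), whose probe sets averaged 7.04 and 6.09 in WT.

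Of 8 genes of chromatin, replication and the proteasome 7 rose. Donson, a replication fork protein, had the largest difference of the segment, 1.49-fold. It lay at 7.90, 8.27, 8.14, 8.13 and 7.86 in WT and at 8.64, 8.56, 8.77, 8.53 and 8.66 in Ts1Cje (0.57 ± 0.06, adjusted p = 1.7e-05). The spread among WT embryos was wide, but the genotypes did not overlap. Morc3, a chromatin ATPase of nuclear bodies, rose by 0.56 ± 0.07, the bromodomain protein Brwd1 by 0.50 ± 0.06 and the proteasome assembly chaperone Psmg1 by 0.47 ± 0.06. Chaf1b, a subunit of the replication-coupled histone chaperone CAF-1, rose by 0.46 ± 0.05. The centromere loading factor Mis18a rose by 0.35 ± 0.06 and the nucleosome-binding protein Hmgn1 by 0.24 ± 0.04. Setd4, a methyltransferase, did not pass at 0.25 ± 0.06 (adjusted p = 0.077), although its genotypes did not overlap.

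Cell cycle genes outside the segment were read beside these, where 0.311% of all genes passed. Of 31 genes of G1/S and replication 0 passed (median -0.01). Of 31 genes of G2 and mitosis 0 passed (median -0.03). Of these 31, 28 lay below 0, against 11233 of all 20239 genes, and none lay farther from 0 than 0.07. Their mean level overlapped between genotypes, at 8.69 to 8.92 in WT and 8.67 to 8.97 in Ts1Cje.

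Of 9 transcription factors of the segment 2 were higher, and for 4 of the 9 the genotypes did not overlap. Ets2 rose 1.32-fold, from 8.76, 8.61, 8.65, 8.83 and 8.66 in WT to 9.24, 9.09, 9.02, 9.12 and 9.03 in Ts1Cje (0.40 ± 0.06). Prdm15, a zinc finger regulator of early development, rose by 0.22 ± 0.04 (adjusted p = 0.025), a call that was lost in 6 of the 10 fits that left out 1 array. Zbtb21 lay at 0.19 ± 0.04 (adjusted p = 0.081) and the endothelial factor Erg at 0.19 ± 0.05 (adjusted p = 0.28), both without overlap. Olig2, which specifies oligodendrocytes and ventral progenitors, had a probe set above 8 in every embryo and yet lay at 0.08 ± 0.06. Its values were 8.44, 8.18, 8.19, 8.36 and 8.34 in WT and 8.42, 8.32, 8.25, 8.53 and 8.40 in Ts1Cje, which overlap. The 95% interval of Olig2, -0.04 to 0.21, lay below the log2 of 1.5. Olig1, its neighbour, lay at 0.23 ± 0.06 (adjusted p = 0.27). The dim Runx1 (-0.01), Sim2 (-0.01) and Ripply3 (0.07) did not pass. Of 13 other oligodendrocyte precursor genes 0 passed, with a median of 0.00. In bulk tissue, fewer cells of a type and less RNA per cell cannot be told apart.

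Of 10 metabolic genes 7 rose. Besides Sod1 these were Cryzl1 (0.44 ± 0.04), the myo-inositol transporter Slc5a3 (0.40 ± 0.07), the carbonyl reductase Cbr1 (0.40 ± 0.05), the biotin ligase Hlcs (0.38 ± 0.05), the purine synthesis enzyme Gart (0.33 ± 0.04) and Atp5o, a stalk subunit of the mitochondrial ATP synthase (0.31 ± 0.04). Pigp, of GPI anchor synthesis, lay at 0.19 ± 0.05 without overlap and did not pass (adjusted p = 0.21). B3galt5 (0.27 ± 0.08) and Cbr3 (0.13 ± 0.09) were dim and overlapped. Of 33 other genes of oxidative phosphorylation 0 passed (median 0.00). Of 19 genes of the NRF2 antioxidant response 0 passed (median -0.02), with the glutathione peroxidase Gpx4 at 0.18 ± 0.07.

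Kcnj6, the GIRK2 subunit of G-protein-gated potassium channels, was the one segment gene with a WT signal under 7 that passed. It lay at 7.00, 7.06, 7.00, 6.96 and 6.95 in WT and at 7.40, 7.44, 7.36, 7.53 and 7.36 in Ts1Cje, a 1.34-fold increase with little spread in either genotype (0.42 ± 0.05). Kcne2, a potassium channel subunit of the choroid plexus, rose by 0.23 ± 0.05 (adjusted p = 0.045), and this call was lost in 8 of the 10 fits that left out 1 array. Clic6, another choroid plexus gene, lay at 0.32 ± 0.08 and missed the threshold (adjusted p = 0.19) without overlap. The choroid plexus list, which includes Kcne2 and Clic6, had a median of -0.03 over 13 genes, with 10 below 0. The plexus marker Ttr lay at -0.11 ± 0.04. The other 4 channel and junction genes, Kcne1, Kcnj15, Cldn14 and Igsf5, lay between -0.09 and 0.01.

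Both bright neuronal genes rose. Dscam, an adhesion molecule of dendrite and axon patterning, lay at 10.34, 10.60, 10.43, 10.37 and 10.36 in WT and at 10.99, 10.87, 10.87, 11.08 and 10.98 in Ts1Cje, a 1.45-fold increase (0.54 ± 0.05). Pcp4, a calmodulin regulator, rose 1.34-fold (0.42 ± 0.06). The dim protease gene Bace2 lay at 0.08 ± 0.06. Another 3 genes of varied function rose, which makes 3 of 8 in that group: the small membrane protein Smim11 (0.40 ± 0.04), the ciliary assembly factor Cfap298 (0.36 ± 0.06) and the chaperone Dnajc28 (0.33 ± 0.06). Without WT replicate 5, Ts1Cje replicate 2 or Ts1Cje replicate 3 the Dnajc28 call was lost, at adjusted p-values up to 0.058. The others, Mrap, Lca5l, Sh3bgr, Tmprss2 and Fam3b, lay between -0.22 and 0.17. Of 6 genes without an assigned role 0 passed.

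On apigenin chow, with other embryos of both genotypes, 44 of the 75 segment genes passed and 41 passed on both chows. The segment mean differed by 0.26 there too (exact permutation test, two-sided, p = 0.0079). Gene calls on both chows use the same estimate of spread per gene, so they are not independent of each other.

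The end of chromosome 12, to which the segment is joined, gave both the largest rise and the largest fall of the array among genes that passed. Of the 7 measured genes from Dnah11 to the end of that chromosome 1 was higher, 4 were lower and 2 did not pass. Upstream sequences of 3 of them are shown: the neighbours Dnah11 and Sp4, which moved in opposite directions, and Itgb8. They are the 250 bases before the annotated start of Dnah11, which rose, of Sp4, its neighbour, which fell, and of Itgb8, which fell the most (RefSeq, GRCm38.p6, minus strand, at chr12:118199044-118199293, chr12:118301441-118301690 and chr12:119238277-119238526). Capitals mark GC boxes, the sequence GGGCGG or its reverse complement CCGCCC, the motif that Sp factors recognise.

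Dnah11: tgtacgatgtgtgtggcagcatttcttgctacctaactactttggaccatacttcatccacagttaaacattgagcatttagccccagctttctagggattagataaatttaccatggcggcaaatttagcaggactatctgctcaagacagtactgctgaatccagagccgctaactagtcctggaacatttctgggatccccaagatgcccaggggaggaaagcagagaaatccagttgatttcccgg
Sp4: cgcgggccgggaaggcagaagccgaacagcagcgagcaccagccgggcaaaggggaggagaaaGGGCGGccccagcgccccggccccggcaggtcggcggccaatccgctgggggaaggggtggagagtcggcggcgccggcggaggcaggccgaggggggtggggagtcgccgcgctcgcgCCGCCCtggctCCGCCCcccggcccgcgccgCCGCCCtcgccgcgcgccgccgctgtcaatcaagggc
Itgb8: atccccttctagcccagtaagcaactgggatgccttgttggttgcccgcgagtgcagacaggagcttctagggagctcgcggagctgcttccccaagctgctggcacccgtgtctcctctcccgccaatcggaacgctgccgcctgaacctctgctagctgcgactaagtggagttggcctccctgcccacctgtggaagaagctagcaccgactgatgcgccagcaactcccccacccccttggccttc

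The Sp4 window held 4 GC boxes, those of Dnah11 and Itgb8 held 0, and 32.7% of 32851 such windows in the genome held at least 1. CCAAT, searched on both strands, was present once each upstream of Sp4 and Itgb8 and not upstream of Dnah11, against 33.8% of all windows. The sequence TATAAA was found in 0 of the 3 windows, against 12.4% of all. GC content was 46.0% for Dnah11, 80.0% for Sp4 and 62.4% for Itgb8. These matches describe the letters in the windows only.

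Dnah11 encodes a heavy chain of the outer dynein arm of motile cilia. It stood at 7.17, 7.01, 7.25, 6.78 and 7.05 in WT and at 10.54, 10.66, 10.61, 10.60 and 10.53 in Ts1Cje. Every Ts1Cje embryo was more than 3 units above every WT embryo, and the fitted increase was 11.6-fold (3.54 ± 0.06, adjusted p = 2.5e-19). Of 24 measured members of an axonemal and cilia list 0 passed, with a median of -0.01, against 0.311% passing over all genes. The mean level of the list was dim, at 6.90 to 6.98 in WT and 6.88 to 6.94 in Ts1Cje. Among its members the dynein chain Dnah9 lay at 0.12 ± 0.06 and the master regulator of motile cilia Foxj1 at -0.10 ± 0.05.

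Of the 6 genes beyond Dnah11, 4 were lower. Itgb8, the beta chain of an integrin that activates TGF-beta in the developing brain, lay at 9.60, 9.78, 9.74, 9.63 and 9.58 in WT and at 8.98, 9.04, 8.96, 8.81 and 8.96 in Ts1Cje. Every Ts1Cje embryo lay far below every WT embryo, and Itgb8 was at 0.609 of its WT level (-0.71 ± 0.05, adjusted p = 1.4e-07). Tmem196 lay at 8.79, 8.81, 8.71, 8.71 and 8.44 in WT and at 8.25, 8.03, 8.19, 8.20 and 8.27 in Ts1Cje (-0.50 ± 0.07). Of 21 measured genes of TGF-beta and integrin signalling 0 passed, with a median of 0.00 and Tgfb3 nearest at -0.18 ± 0.06.

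Sp4 and Sp8 are zinc finger transcription factors that bind GC boxes; Sp8 is used in forebrain patterning and in interneuron progenitors. Sp4 was at 9.35, 9.55, 9.34, 9.42 and 9.34 in WT and at 8.95, 9.01, 9.04, 8.97 and 8.97 in Ts1Cje (-0.41 ± 0.05). Sp8 was at 7.91, 7.87, 8.01, 7.81 and 7.88 in WT and at 7.52, 7.74, 7.63, 7.67 and 7.45 in Ts1Cje (-0.30 ± 0.05). Neither overlapped between genotypes. Of 22 measured genes of interneurons and the ganglionic eminences, where Sp8 acts, 0 passed, with a median of -0.02 and differences within 0.13 of 0. Genes elsewhere in the genome with a GC box in their 250 upstream bases had a median difference of -0.006 (7626 genes, quartiles -0.04 and 0.03). Those without one had a median of -0.014 (7958 genes, quartiles -0.06 and 0.03). Of the genes with a GC box 8 passed, and of those without 4. Any effect of lower Sp4 and Sp8 on such genes was not tested.

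The 2 remaining genes of this end, Abcb5 and Macc1, had dim probe sets near 5 and lay at 0.00 and -0.03. Before Dnah11 nothing passed: of 50 measured genes 0 differed, with a median of 0.00, and the adjoining Cdca7l and Rapgef5 lay at 0.08 ± 0.04 and 0.04 ± 0.05. The 4 falls lay between -0.71 and -0.30, where the log2 of 0.5, for 1 copy in place of 2, is -1; the part of array background and normalization in that gap was not tested. The mean over the 6 genes past Dnah11 was 7.55 to 7.69 in WT and 7.28 to 7.35 in Ts1Cje. All 5 calls at this end were kept in each of the 10 fits that left out 1 array, and the differences on apigenin chow were 3.61 for Dnah11, -0.69 for Itgb8, -0.49 for Tmem196, -0.46 for Sp4 and -0.37 for Sp8.

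**Figure D4:**
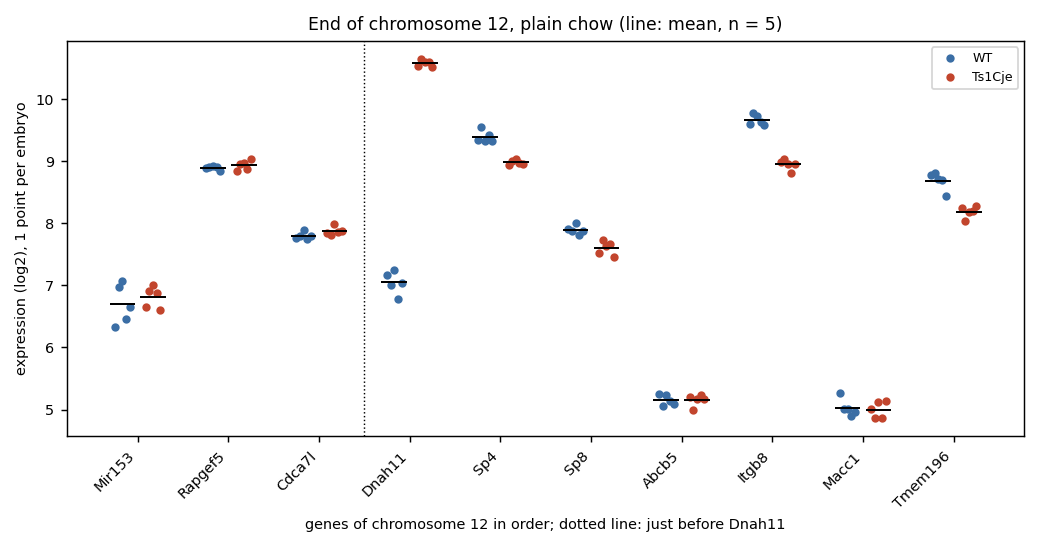
Expression per embryo (vertical axis, log2) of the last 3 measured genes before Dnah11 and the 7 genes from Dnah11 to the end of chromosome 12, in order, for 5 WT (blue) and 5 Ts1Cje (red) embryos; the lines are means. Dnah11 rises from about 7.05 to 10.59, the bright genes beyond it are lower in Ts1Cje, and the 3 genes before it overlap.

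Outside both chromosome ends 15 of 20157 genes passed, 9 higher and 6 lower. They lay on 13 chromosomes, with no more than 2 on any one. The differences were small, between -0.34 and 0.31, and for 14 of the 15 the genotypes did not overlap. Over all 20157 genes elsewhere, 94 lay higher and 120 lower without overlap. The calls and the overlap rest on the same values. The number of calls rested on single embryos: it was 31 without WT replicate 2, 9 without WT replicate 3, 8 without Ts1Cje replicate 2 and 7 without WT replicate 5 or Ts1Cje replicate 3. With only the 10 plain chow arrays in the model it was 5: Wdr17, Gngt2, Rfx5, Smim20 and Tpmt. Of the 15 genes, 4 passed in each of the 10 fits that left out 1 array: Wdr17, Gngt2, Cav1 and Dnajc4. Cav1 and Dnajc4 did not pass with only the plain chow arrays.

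Wdr17, a WD-repeat protein gene, was at 8.55, 8.71, 8.68, 8.58 and 8.57 in WT and at 8.89, 8.89, 8.89, 8.89 and 8.94 in Ts1Cje (0.28 ± 0.04, adjusted p = 0.0015). Cav1, the main coat protein of caveolae and abundant in endothelium, was at 9.02, 9.22, 9.13, 9.24 and 9.09 in WT and at 9.39, 9.37, 9.41, 9.41 and 9.41 in Ts1Cje (0.26 ± 0.04, adjusted p = 0.0027). In both genes the 5 Ts1Cje embryos lay close together above all WT embryos. Of 21 measured endothelial and pericyte genes 0 passed; their median was 0.04, with 16 above 0, the transporter Slco1c1 at 0.18 ± 0.06 and the cadherin Cdh5 at 0.15 ± 0.05. The mean level of these markers overlapped, at 8.91 to 9.04 in WT and 8.97 to 9.05 in Ts1Cje, and their part in the Cav1 difference was not tested.

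The remaining higher genes were the J-domain chaperone Dnajc4 (0.27 ± 0.05), the sperm protein gene Tsga10 (0.31 ± 0.07), the thiopurine methyltransferase Tpmt (0.30 ± 0.06), the glycerol kinase Gk5 (0.27 ± 0.05), the aquaporin Aqp11 (0.23 ± 0.05), the olfactory receptor Olfr61 (0.19 ± 0.04) and Clcn2 (0.18 ± 0.04). Except for Dnajc4, each of these calls was lost in 6 or 8 of the 10 fits that left out 1 array, with adjusted p-values up to 0.17. Tpmt also passed on apigenin chow (0.35, adjusted p = 0.0056). Olfr61 lay on the other side of 0 there, at -0.13.

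Among the lower genes, Gngt2, a transducin subunit of cone photoreceptors, was at 6.16, 6.04, 6.13, 6.09 and 6.19 in WT and at 5.81, 5.70, 5.69, 5.74 and 5.99 in Ts1Cje (-0.34 ± 0.06, adjusted p = 0.0026). The probe set is dim in both genotypes, and on apigenin chow the difference was 0.00. Rfx5, a subunit of the RFX complex that activates class II major histocompatibility genes, was at 8.33, 8.36, 8.41, 8.50 and 8.35 in WT and at 8.14, 7.98, 8.10, 8.02 and 8.18 in Ts1Cje (-0.30 ± 0.06, adjusted p = 0.011). It passed on apigenin chow as well (-0.39, adjusted p = 5.2e-04) and missed the threshold without WT replicate 4 or Ts1Cje replicate 2 (adjusted p up to 0.054). Of the 11 other class II genes measured 0 passed, and the list's median was -0.03.

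Ddit4, a stress-induced inhibitor of mTORC1, was at 9.19, 8.88, 8.95, 9.18 and 8.99 in WT and at 8.81, 8.71, 8.72, 8.80 and 8.66 in Ts1Cje (-0.30 ± 0.06, adjusted p = 0.031). The WT embryos fell into a higher pair and 3 lower values, and the lowest of them lay only just above the highest Ts1Cje embryo. Of the 21 other stress, mTORC1 and p53 genes 0 passed. Cpne6, a calcium-dependent membrane-binding protein of neurons, overlapped between genotypes, with Ts1Cje replicate 4 at 8.16 above WT replicate 3 at 8.15 (-0.33 ± 0.06, adjusted p = 0.024). Dnajc5b (-0.32 ± 0.06) and Smim20 (-0.27 ± 0.05) completed the group. The calls of Ddit4, Cpne6, Dnajc5b and Smim20 were lost in 6, 5, 4 and 8 of the 10 fits that left out 1 array.

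**Figure D5:**
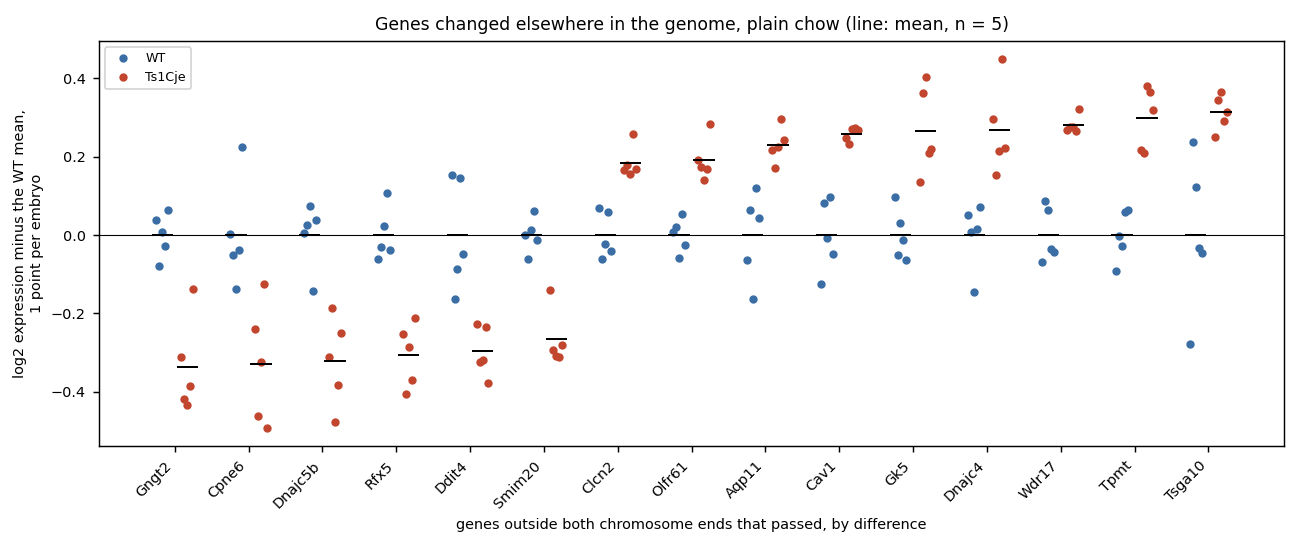
Log2 expression of each embryo minus the mean of the 5 WT embryos (vertical axis) for the 15 genes that passed outside both chromosome ends, ordered by difference, with WT in blue, Ts1Cje in red and lines at the means. The shifts lie between -0.34 and 0.31, and the genotypes touch only in Cpne6.

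Just past the threshold lay 10 more genes with adjusted p-values of 0.050 to 0.092. Higher in value were Art3 (0.34), Caprin2 (0.22), Qdpr (0.20), Blvrb (0.19), Pidd1 (0.19), Shc4 (0.17) and Idh2 (0.15), and lower were Atp6ap1l (-0.30), Zc3h10 (-0.20) and Zcchc18 (-0.17). Idh2, a mitochondrial isocitrate dehydrogenase, passed on apigenin chow at 0.16.

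The 30 lists of pathways, cell types and tissue markers held 569 genes, and 3 lists held a gene that passed, through Kcne2, Rfx5 and Ddit4. With 0.311% of all genes passing, 0 calls in a list of such size is near the share over all genes. Of all 20239 genes, 11233 lay below 0. List medians ranged from -0.08 to 0.06 against -0.01 over all genes, and the mean level of no list separated the 5 Ts1Cje from the 5 WT embryos. Radial glia had a median of -0.01 over 19 genes (11 below 0), intermediate progenitors -0.05 over 16 (12 below 0), deep-layer neurons -0.02 over 13 (8 below 0) and upper-layer neurons -0.03 over 11 (7 below 0), with 0 calls in each. The forebrain identity list had a median of -0.05, with 7 of 10 below 0. Synapse genes had a median of 0.02 over 37 and axon guidance genes 0.03 over 28, with the guidance cue Slit2 at 0.16 ± 0.04 (adjusted p = 0.30) and no overlap. The highest median belonged to meninges and fibroblasts, at 0.06 with 17 of 18 genes above 0 and Postn at 0.20 ± 0.06. The lowest belonged to immediate early genes, at -0.08 over 14, with Nr4a1 at -0.13 ± 0.05. Erythroid genes had 8 of 9 below 0, with a median of -0.04. Microglial genes lay at 0.02 over 15. The half-width of the 95% interval of a single gene had a median of 0.13, so differences of under about that size could not be told from the spread between embryos. That interval is not adjusted for the number of genes tested. Larger differences could miss the threshold too, such as A630089N07Rik in the segment at 0.24 ± 0.06 (limma, adjusted p = 0.10).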

How the data were processed

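The values the authors deposited are log2 probe set signals from RMA, per the submitters' processing notes. The RMA version, the chip annotation used and any build were not given in the sources used here. RMA makes the arrays' distributions alike and compresses dim signals. Of 21225 probe sets, 20239 had 1 gene symbol, 0 had several and 986 are unnamed here; columns of other samples numbered 0. Only RNA of high integrity was hybridised, per the labels' protocols.

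Groups came from the genotype and treatment labels. A model with 1 mean for each of 4 groups was fitted over all 20 arrays in R 4.3.3 with limma 3.58.1 (lmFit, eBayes), two-sided. Genes passed at a Benjamini-Hochberg adjusted p under 0.05, computed across the 20239 genes. The study's methods name unpaired t-tests at p under 0.001 with a false discovery rate of 10%, run here as alternatives. The number of arrays limits the precision. Gene order and upstream windows came from RefSeq, GRCm38.p6; 15651 genes had a window. The fit and the exact permutation test were tested on simulated data.

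Named were the genes of both chromosome ends, every other gene that passed, the 10 next by p, and up to 4 members per list. The members, lists and rules were chosen with earlier results of these data known.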

Additional observations from a re-analysis of the deposited data

Results flagged for a closer look

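For the 63 genes that passed and the segment mean, 128 groups of 5 embryos were looked at for a single embryo standing apart, by Dixon's ratio of a gap to the range (critical value 0.71 for 5 values). Chance gives about 1 in 20, and 13 were found. In the segment, Ts1Cje replicate 5 was lowest for Scaf4 (9.84 against 9.97 for the next embryo) and Gart (9.70 against 9.74). Ts1Cje replicate 4 was highest for Cbr1 (10.22 against 10.11), and Ts1Cje replicate 1 was lowest for Morc3 (9.73 against 9.85). WT replicate 2 was highest for Cryzl1 (9.98 against 9.82) and Pcp4 (11.47 against 11.27). WT replicate 5 was lowest for Smim11 (9.26 against 9.34) and highest for Dyrk1a (11.23 against 11.15), and WT replicate 4 was lowest for Hmgn1 (9.21 against 9.29). At the end of chromosome 12, WT replicate 5 was lowest for Tmem196 (8.44 against 8.71). Elsewhere, Ts1Cje replicate 5 was highest for Wdr17 (8.94 against 8.89), Ts1Cje replicate 1 for Smim20 (7.57 against 7.43) and Ts1Cje replicate 4 for Clcn2 (9.43 against 9.35).

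The olfactory receptor gene Olfr61 was higher in Ts1Cje on plain chow (0.19) and lower in value on apigenin chow (-0.13). The test of the difference between chows, an interaction term in limma, gave 0 of 20239 genes past the threshold, with 533 at an unadjusted p under 0.05 and a smallest adjusted p of 0.143. Of the 986 probe sets without a gene name here, 2 passed when all probe sets were tested: 1 at 0.60 ± 0.08 and 1 at 0.27 ± 0.06.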

How the results depend on the processing

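No gene that passed changed sign under any alternative run. Of 1260 values of the 63 genes that passed under the alternatives, 144 no longer passed, 18 within-run values, which carry no test, moved by more than the spread between embryos, and 32 genes passed in every alternative run, 28 of them in the segment and 1 elsewhere (Wdr17). With the methods' t-test and Benjamini-Hochberg adjustment 34 genes passed, 32 higher and 2 lower: 28 in the segment, 3 at the end of chromosome 12 (2 lower), and 3 elsewhere (3 higher and 0 lower). Of the 15 genes that passed elsewhere in the main fit, 14 did not pass this t-test and Wdr17 did. The rest of the 3 were other genes. That test with a p under 0.001 gave 33 elsewhere, 21 higher and 12 lower. With only the plain chow arrays 6 genes were lower in all, and 5 passed elsewhere, 2 higher and 3 lower. At an adjusted p under 0.1 the count elsewhere was 25, with 16 higher, and without the dimmest 40% of genes 15 were higher elsewhere and 73 lay lower without overlap. Within embryo numbers 87 to 94 the segment mean differed by 0.27 (exact p = 0.333) and 3594 genes lay higher and 3578 lower without overlap. Within the higher run of embryo numbers these were 0.25 (exact p = 0.1), 781 and 1056; with 2 or 3 embryos against as many, far more genes do not overlap by construction. Leaving out 1 array at a time gave 52 to 79 genes, 45 to 68 higher and 6 to 11 lower, with 40 to 43 in the segment, 5 at the end of chromosome 12 and 7 to 31 elsewhere (4 to 24 higher, 2 to 7 lower). The segment mean then differed by 0.26 to 0.27, and 171 to 324 genes lay higher and 186 to 315 lower without overlap. Fewer arrays enter the plain-chow fit and the t-tests; otherwise the cause was not tested. No paired analysis was possible because the labels give the embryos no replicate numbers shared between the genotypes. With the run of embryo numbers as a term 61 genes passed, and with the Y-linked level as a term 64.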
